A study of Rattus norvegicus with 12 samples.

Results

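Gpam, Agpat2, Lpin1, Dgat1 and Dgat2 encode the enzymes that build triglyceride in the liver, and Pnpla3 encodes a lipid droplet protein that acts on the fatty acids held in it. These 6 genes were chosen by name, and every probe set with one of them as its single gene symbol was used. They are 6 of 14217 genes that have a probe set of their own on the array. Together they have 11 probe sets, of which 9 varied and 2 carried the same value on all 12 arrays.

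Livers came from male Sprague Dawley (SD) rats, 9 weeks old, after 28 days on 1 of 3 purified diets based on AIN-93G. The diets were the control diet with no seaweed, the same diet with 0.1% wakame powder, and the same diet with 1% wakame powder. The wakame was an edible brown alga eaten in East Asia. Each diet was fed to 6 rats housed 3 to a cage, and 4 livers per diet were analysed here on Affymetrix 3′ arrays as separate biological replicates. Which rats shared a cage is not given in the sources used here, so the effects of diet and of cage cannot be told apart. The control diet held 7% fat, 20% casein and 52.9% corn starch. Whether the rats had been fasted is not given in the sources used here.

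All values below are log2 signals as deposited, so a difference of 1 is a doubling. Of 31042 probe sets other than the manufacturer's controls, 27802 (89.6%) had a standard deviation (SD) of 0.01 or less over the 12 arrays. Such flat probe sets were treated as unmeasured, and a flat value does not show that a gene stayed the same. Differences between diets were tested over the 3240 varying probe sets with limma, and p-values were adjusted by Benjamini-Hochberg over all of them, with 0.05 as the threshold. For single probe sets an exact two-sided permutation test of 4 against 4 arrays was added, which cannot give a p below 0.0286. Pairs of arrays within a diet correlated at 0.911 to 0.961 over the varying probe sets. The comparisons of each wakame diet with the control diet share the 4 control livers.

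Hepatocytes make triglyceride in steps on the endoplasmic reticulum. A fatty acid is joined to glycerol-3-phosphate by GPAM, a second is added by AGPAT enzymes such as AGPAT2, and the phosphate is then removed by lipins to give diacylglycerol. DGAT1 and DGAT2 each add the last fatty acid. The product is stored in lipid droplets, broken down again by lipases, or exported on very low density lipoprotein (VLDL). PNPLA3 sits on the droplet surface and has been described both as a lipase and as an acyltransferase. Its transcript and that of GPAM are textbook targets of the lipogenic factor SREBP-1c, while LPIN1 is known as a fasting and glucocorticoid responsive gene.

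Because several of these genes are known targets of lipogenic factors, the bases around annotated starts were read from RefSeq on the rat build GRCr8, for which 4 of the 6 genes matched the promoter table. The table gives 250 bases before and 50 bases after 1 start for each gene. The windows of Lpin1 and Agpat2 lie wholly inside the annotated genes, and only 49 bases of the Gpam window lie outside its gene. For Pnpla3, 207 of the 250 bases before the start lie outside its gene. The starts used for these 4 genes are therefore not the outermost ones. Both strands were searched for CCAAT (read as ATTGG on the other strand), for TCACNCC, the first letters of the sterol regulatory element, and for CACGTG, the E-box. The 207 Pnpla3 bases before the annotated gene, chr7:117173278-117173484, plus strand, are shown, since Pnpla3 had the largest differences between diets. They stop short of the start used. Both CCAAT matches, which begin at -111 and -64 from that start, are in capitals.
Pnpla3: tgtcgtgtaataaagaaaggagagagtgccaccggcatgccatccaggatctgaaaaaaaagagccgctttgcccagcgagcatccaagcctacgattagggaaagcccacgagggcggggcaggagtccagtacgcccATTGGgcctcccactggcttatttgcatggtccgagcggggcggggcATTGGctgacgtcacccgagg
The matches in Gpam and Lpin1 lie on the minus strand of the build and are shown for comparison, again with the match in capitals. They are at chr1:264176068-264176097 and chr1:264175864-264175893 for the first and second site of Gpam, and at chr6:45109018-45109047 and chr6:45108980-45109009 for those of Lpin1. The first Gpam site and the second Lpin1 site match the CCAAT box, and the other pair match the sterol regulatory letters. Both Gpam sites lie inside the annotated gene, and the match in the second begins at base 31 after the start.
Gpam, first site: ttggagcttgcaATTGGctgaccaagctcg
Gpam, second site: ggagctgctgaaTCACCCCcaccccaggct
Lpin1, first site: cagatggtgatgTCACACCcccagtgatga
Lpin1, second site: tcctgacacccaCCAATgatcctggagcct
CCAAT occurred in 37.5% of 33469 rat promoter windows of this length, TCACNCC in 14.6% and CACGTG in 6.42%. None of the 4 windows held CACGTG, and the Agpat2 window held no match to any of the 3. The matches are letters in a window and were not measured as bound sites.

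Across the 9 varying probe sets, which stand for 5 genes, no difference passed the adjusted threshold in any comparison. Between 1% wakame and control livers, 4 lay higher and 5 lower, with a median difference of -0.15. Of all 3240, 1784 lay lower, with a median difference of -0.02. limma called 0 of the 9, against 1.67% of all varying probe sets (54 of 3240). At an unadjusted p under 0.05 there were 6 of the 9, against 18.5% of all, and the 2 diets' arrays did not overlap for 4 of the 9, against 11.3% of all. The 6 are 3 Pnpla3 probe sets, Gpam, Agpat2 and 1 of Lpin1, so they are not 6 separate genes.

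Between 0.1% wakame and control livers, 4 lay higher and 5 lower again, while 1812 of all 3240 lay lower. The median was -0.14, beside -0.02 over all, and limma called 0 of 9, against 0.0617% of all (2 of 3240). The unadjusted count was 4 of 9, against 11.5% of all, and 2 of 9 did not overlap, against 5.86%. Between 1% and 0.1% wakame, all 9 lay lower at 1%, with a median of -0.85, while 1651 of all 3240 lay lower, with a median of -0.00375. With each of the 5 genes counted once, at its brightest varying probe set, the median was -0.18. There limma called 0 of 9, against 0% of all, with 0 of 9 at an unadjusted p under 0.05, against 6.76%, and 0 of 9 without overlap, against 3.77%. A joint limma F-test over the 3 diets called 0 of 9, against 0.185% of all (6 of 3240), and the lowest adjusted p among the 9 was 0.188, for Pnpla3.

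**Figure D1:**
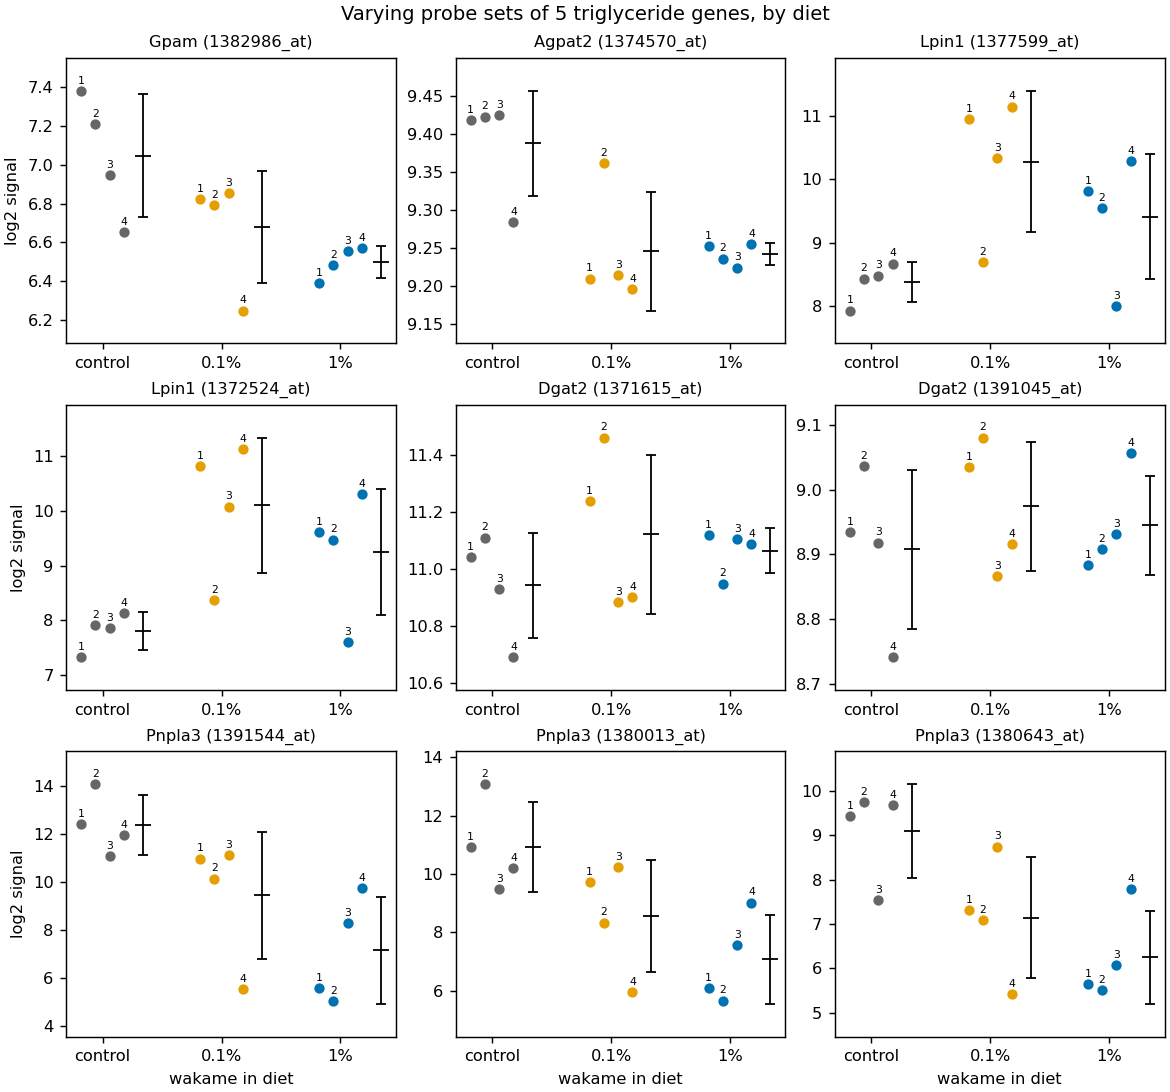
Log2 signal of each varying probe set of the 6 genes (vertical axis) on each of the 12 arrays, by diet. Points are arrays, horizontal marks are the diet means and error bars are the SD within each diet. Pnpla3 spanned 5.03 to 14.07 at its brightest probe set, while Agpat2 stayed between 9.20 and 9.42.

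**Figure D2:**
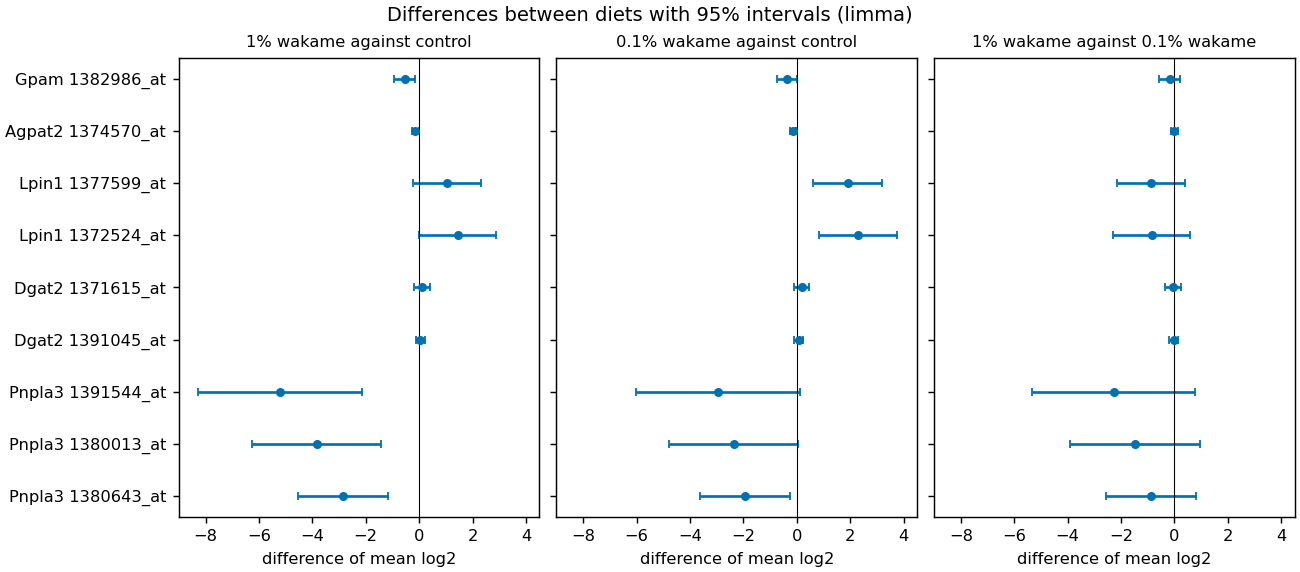
Difference of mean log2 signal for each varying probe set in each comparison, with 95% intervals from limma. The 3 Pnpla3 probe sets lay furthest from 0 between 1% wakame and control livers, and their intervals were the widest in each comparison.

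Gpam, the first acyltransferase of the pathway, was measured by 1 of its 2 probe sets. Probe set 1382986_at read 7.38, 7.21, 6.95 and 6.65 in control livers, 6.82, 6.79, 6.86 and 6.25 in 0.1% wakame livers, and 6.39, 6.48, 6.55 and 6.57 in 1% wakame livers. All 4 livers on 1% wakame lay below all 4 control livers, while 3 of the 0.1% wakame livers lay within the control range and rat 4 lay below every other liver. The means were 6.50 ± 0.08 on 1% wakame and 7.05 ± 0.32 on the control diet (SD, n = 4 each). The difference was -0.55 ± 0.17 (SE; 95% interval -0.93 to -0.17), with a limma adjusted p of 0.131 and an exact permutation p of 0.0286. On 0.1% wakame the mean was 6.68 ± 0.29 and the difference from control -0.37 ± 0.17, with a limma adjusted p of 0.452. That difference was -0.22 without 0.1% wakame rat 4. Values under each array's median of 6.59 were read on 5 arrays, all 4 of 1% wakame and that of 0.1% wakame rat 4. The Gpam differences therefore rest on low signals. The other Gpam probe set, 1369758_at, was flat at 6.74.

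Agpat2, which adds the second fatty acid, differed little in size but tightly. Its probe set 1374570_at read 9.42, 9.42, 9.42 and 9.28 in control livers, 9.21, 9.36, 9.21 and 9.20 in 0.1% wakame livers, and 9.25, 9.24, 9.22 and 9.26 in 1% wakame livers. Every liver on 1% wakame lay below every control liver, and 0.1% wakame rat 2 lay within the control range. The difference from control was -0.15 ± 0.06 on 1% wakame (95% interval -0.27 to -0.02), with a limma adjusted p of 0.211 and an exact permutation p of 0.0286. On 0.1% wakame it was -0.14 ± 0.06, with a limma adjusted p of 0.379 and an exact permutation p of 0.0571.

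Lpin1 encodes the phosphatase that makes diacylglycerol and also acts as a transcriptional coactivator. At probe set 1377599_at it read 7.93, 8.43, 8.48 and 8.67 in control livers, 10.95, 8.69, 10.34 and 11.15 in 0.1% wakame livers, and 9.81, 9.55, 8.00 and 10.30 in 1% wakame livers. All 0.1% wakame livers lay above all control livers, although rat 2 did so by a small margin, and 1% wakame rat 3 lay within the control range. The means were 10.28 ± 1.12 on 0.1% wakame and 8.38 ± 0.32 on the control diet (SD, n = 4 each).

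For Lpin1 the difference between 0.1% wakame and control livers was 1.91 ± 0.58 (95% interval 0.63 to 3.19), with a limma adjusted p of 0.228 and an exact permutation p of 0.0286. The second probe set, 1372524_at, gave 2.29 ± 0.65 with a limma adjusted p of 0.213 and the same exact permutation p. On 1% wakame the differences from control were 1.04 ± 0.58 and 1.44 ± 0.65, with limma adjusted p-values of 0.367 and 0.270 and an exact permutation p of 0.114 at both. The 1% wakame livers lay 0.87 below the 0.1% wakame livers at 1377599_at, with a 95% interval of -2.15 to 0.41 for the difference, so the order of the 2 wakame diets was not resolved. That difference was -1.40 without 0.1% wakame rat 2, -0.58 without 0.1% wakame rat 4 and -0.40 without 1% wakame rat 3. The differences of Lpin1 from control were larger at the lower dose at both probe sets, but the difference between doses did not pass the threshold.

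Dgat2, one of the enzymes for the last step, lay close to the control level on both diets. Probe set 1371615_at read 11.04, 11.11, 10.93 and 10.69 in control livers, 11.24, 11.46, 10.88 and 10.90 in 0.1% wakame livers, and 11.12, 10.95, 11.10 and 11.09 in 1% wakame livers, with the 3 diets overlapping. Its differences from control were 0.12 ± 0.13 on 1% wakame (95% interval -0.18 to 0.42) and 0.18 ± 0.13 on 0.1% wakame (-0.12 to 0.48). The second probe set, 1391045_at, gave 0.04 ± 0.08 and 0.07 ± 0.08. limma adjusted p-values for Dgat2 ran from 0.686 to 0.873 in these 4 tests. Dgat1, which carries out the same reaction, has a single probe set here, 1367915_at, which was flat at 8.60 and so gave no measurement.

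Pnpla3 had the largest difference in size of all 3240 varying probe sets between 1% wakame and control livers. At its brightest probe set, 1391544_at, it read 12.40, 14.07, 11.09 and 11.96 in control livers. It read 10.97, 10.14, 11.11 and 5.53 in 0.1% wakame livers, and 5.59, 5.03, 8.28 and 9.74 in 1% wakame livers. All 1% wakame livers lay below all control livers, and 0.1% wakame rat 4 lay with the lowest 1% wakame livers.

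The Pnpla3 means were 7.16 ± 2.23 on 1% wakame and 12.38 ± 1.25 on the control diet (SD, n = 4 each). The difference of -5.22 ± 1.39 (95% interval -8.29 to -2.15) corresponds to a level 37.4-fold lower. Its limma adjusted p was 0.0856 and its exact permutation p 0.0286. By p-value it ranked 125 of 3240, and by size it ranked 1. Values under each array's median of 6.59 were read on 3 arrays, and no detection call was among the values used, so the size of the fold rests on low signals.

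The other 2 Pnpla3 probe sets gave smaller differences in the same direction. Probe set 1380013_at averaged 7.08 ± 1.53 on 1% wakame and 10.92 ± 1.55 on the control diet (SD, n = 4 each), a difference of -3.84 ± 1.10 with a limma adjusted p of 0.104. Probe set 1380643_at averaged 6.25 ± 1.05 and 9.10 ± 1.05 in the same diets, a difference of -2.84 ± 0.76 with a limma adjusted p of 0.0878. At 1380643_at the diets overlapped, because 1% wakame rat 4 read 7.78 and control rat 3 read 7.53.

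On 0.1% wakame the Pnpla3 differences from control were -2.94 ± 1.39, -2.36 ± 1.10 and -1.95 ± 0.76 at the 3 probe sets. limma adjusted p-values were 0.454, 0.452 and 0.370. Without 0.1% wakame rat 4 the first of these was -1.64, so 1 liver carried much of it. Between 1% and 0.1% wakame the difference at 1391544_at was -2.28 ± 1.39 (95% interval -5.35 to 0.79), with a limma adjusted p of 0.824. Without 0.1% wakame rat 4 it was -3.58.

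Pnpla3 and Lpin1 also varied strongly between rats on the same diet. The SD within diets was 2.12 for Pnpla3 at 1391544_at, which ranked 13 of 3240, and 0.883 and 0.996 for the 2 Lpin1 probe sets, beside a median of 0.206 over all varying probe sets. It was 0.252 for Gpam, 0.198 for Dgat2 at 1371615_at and 0.0604 for Agpat2. Differences between rats on 1 diet made up 42.5% of the variance of Pnpla3 at 1391544_at, 37.4% for Agpat2, 47.8% for Gpam and 84.2% for Dgat2 at 1371615_at. Probe sets of 1 gene followed each other over the 12 arrays, with r of 0.996 for Lpin1, 0.845 for Dgat2 and 0.930 to 0.979 for Pnpla3.

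Since these livers differed within diets, the 10 pairs among the 5 measured genes were compared over the 12 rats at each gene's brightest varying probe set, with 100000 permutations and adjustment over the 10 pairs. Gpam and Pnpla3 had r = 0.85 (permutation p 0.00036, adjusted 0.0036) and Spearman's rho = 0.90 (adjusted permutation p 0.0021). The value was again 0.85 without the 2 rats farthest from the Gpam median. Within diets, after each diet's mean was removed, r was 0.69 (permutation p 0.0201, adjusted 0.104), so the relation did not pass the adjusted threshold there.

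Gpam and Agpat2 had r = 0.78 (adjusted permutation p 0.0138) and rho = 0.61 (adjusted permutation p 0.131), and r was 0.56 without the 2 farthest rats and 0.55 within diets (adjusted permutation p 0.317). Agpat2 and Lpin1 had r = -0.72 (adjusted permutation p 0.0358) and rho = -0.73 (adjusted permutation p 0.0482), with -0.69 without the 2 farthest rats and -0.52 within diets (adjusted permutation p 0.271). Agpat2 and Dgat2 had r = 0.17 over all rats and 0.82 within diets (adjusted permutation p 0.104). No pair passed the adjusted threshold within diets.

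**Figure D3:**
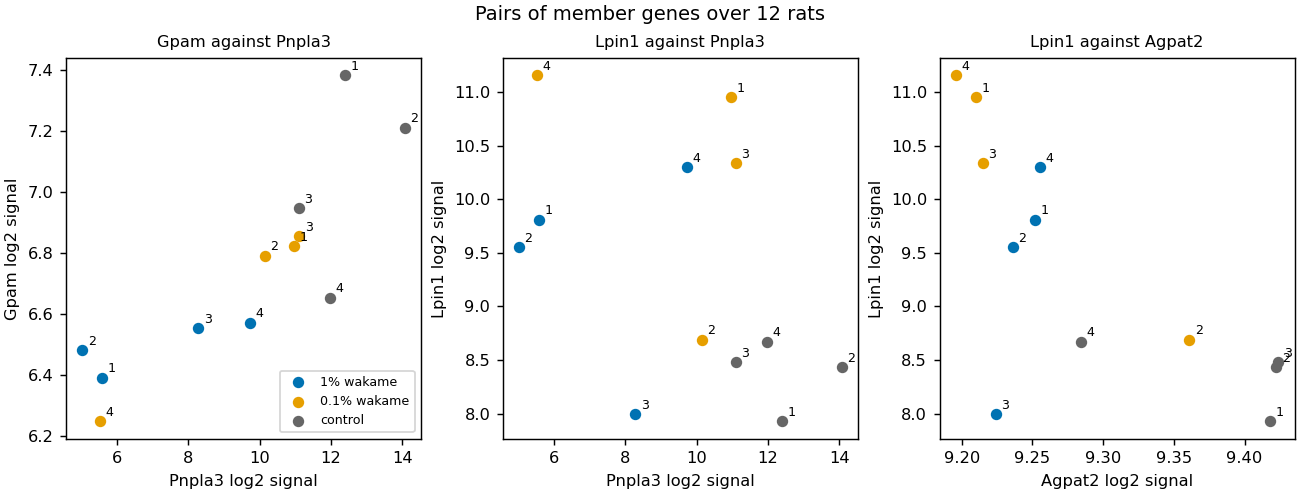
Log2 signals of pairs of the measured genes over the 12 livers, coloured by diet; each point is 1 liver. Livers low in Gpam were low in Pnpla3, with r = 0.85 over all 12 and 0.69 within diets.

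The genes whose pattern over the 12 arrays was most like each member were taken from 2300 genes by Pearson's r, as a description. For Pnpla3 these were Tubb2a (0.97), Acly (0.96), Elovl6 (0.95) and Xpc (0.93). Acly makes cytosolic acetyl-CoA and Elovl6 lengthens palmitate. For Gpam they were Tubb5 (0.97), Acss2 (0.96), Pgd (0.93) and Tpi1 (0.92), of which Acss2 makes acetyl-CoA from acetate and Pgd makes NADPH. Lpin1 was most like Zfp354a (0.94), Tsc22d3 (0.91), Cdc42ep4 (0.90) and Tdo2 (0.87), where Tsc22d3 encodes the glucocorticoid-induced leucine zipper and Tdo2 degrades tryptophan. Agpat2 was most like Casp12 (0.91), Ccna2 (0.90), H2az1 (0.88) and Ect2 (0.87). Dgat2 had the weakest likeness, with Akr1c14 and Snrnp25 at 0.80, Ifi35 at 0.79 and Pgm1 at 0.76. All these values share the same 12 arrays.

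The rest of the pathway was read from 8 gene lists with 115 genes, of which 105 had a probe set and 49 varied. Between 1% wakame and control livers, 18 of the 49 lay higher and 31 lower, beside 1784 lower of all 3240 varying probe sets. limma called 0 of the 49, and 8 (16.3%) had an unadjusted p under 0.05, beside the 18.5% of all given above. Named genes are given at their brightest varying probe set.

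Upstream of Gpam, 3 of 4 varying genes for glycerol-3-phosphate supply lay higher on 1% wakame, with a median of 0.23. Gk, which phosphorylates glycerol, differed from control by 0.32 ± 0.12, and Gpd1, which reduces dihydroxyacetone phosphate, by -0.26 ± 0.16. The Gpd1 difference ran from -0.43 without 1% wakame rat 4 to -0.17 without control rat 2 or 1% wakame rat 1. For Gk the limma adjusted p was 0.204 with all livers. Without 1% wakame rat 4 the Gk difference was 0.46, with a limma adjusted p of 0.0416. Leaving out any other liver of these diets gave limma adjusted p-values of 0.188 to 0.386. With the 3′ to 5′ Gapdh difference, described below, as a covariate, the Gk difference was 0.18 (limma adjusted p 0.694). Among other acyltransferases and lipins only 2 of 15 genes with a probe set varied, and Lpin2, a lipin expressed in liver, differed by 0.45 ± 0.21. Genes that supply acyl-CoA lay on both sides, 3 higher and 5 lower of 8, with a median of -0.05, and Acsl5, an acyl-CoA synthetase, at -0.52, or -0.25 without 1% wakame rat 1.

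Downstream, 5 of 15 lipid droplet genes varied, 2 higher and 3 lower, with a median of -0.02. Plin3, a droplet coat protein, differed by -0.85 ± 0.24, with a limma adjusted p of 0.102. Of 7 varying hydrolysis genes 2 lay higher and 5 lower, with a median of -0.15. Mgll, which cleaves monoglyceride, differed by -0.67 ± 0.26 (limma adjusted p 0.203) and by -0.40 and -0.21 at its other probe sets, and Ces1d, a carboxylesterase with triglyceride hydrolase activity, by 0.72 ± 0.32. For VLDL assembly 3 lay higher and 5 lower of 8, with a median of -0.06, and Mia3, which helps export large cargo from the endoplasmic reticulum, differed by 0.26 ± 0.08 (limma adjusted p 0.130) at 1 probe set and by -0.03 at its other one. In the phospholipid branch, which draws on the same diacylglycerol, 2 of 9 lay higher and 7 lower, with a median of -0.06, and Chka, choline kinase, differed by -0.48 ± 0.19 (limma adjusted p 0.211).

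Among 6 varying lipogenic regulators 1 lay higher and 5 lower on 1% wakame, with a median of -0.85. Srebf1, which encodes SREBP-1, differed by -1.07 ± 0.37 (limma adjusted p 0.165), by -0.59 at its other probe set, and by -0.69 without control rat 2. Mid1ip1, which promotes acetyl-CoA carboxylase assembly, differed by -1.05 ± 0.29 on 1% wakame (limma adjusted p 0.0951) and by -1.44 ± 0.29 on 0.1% wakame (limma adjusted p 0.150). Between 0.1% wakame and control livers, 22 of the 49 lay higher and 27 lower, beside 1812 lower of all 3240 varying probe sets. Of the 49, 4 (8.16%) had an unadjusted p under 0.05, beside 11.5% of all. Between 1% and 0.1% wakame 23 lay higher and 26 lower, with 2 (4.08%), beside 6.76% of all.

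**Figure D4:**
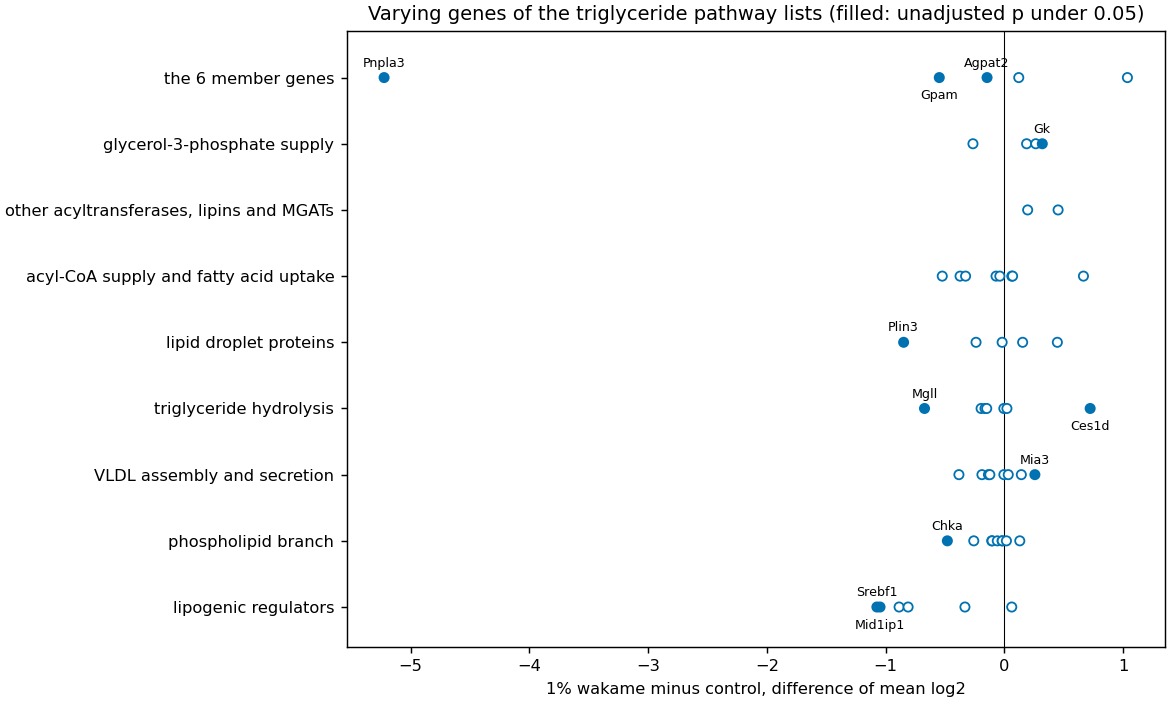
Difference of mean log2 signal between 1% wakame and control livers (horizontal axis) for each varying gene of the member list and the 8 pathway lists; filled points have an unadjusted limma p under 0.05, and none passed the adjusted threshold. Pnpla3 at -5.22 lies apart from the other genes, which range between Srebf1 at -1.07 and Lpin1 at 1.04.

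Whole livers were measured, so fewer cells of a type and less RNA per cell cannot be told apart. Of 10 hepatocyte markers 9 had a probe set, and 3 of these, Alb, Ttr and Serpina1, were flat. Over the 6 that varied, 4 lay higher and 2 lower on 1% wakame than on the control diet, with Cyp2e1 at 0.67 ± 0.35 and Tat at -1.04 ± 0.48. Their summed log2 level was 15.02 to 15.44 on 1% wakame and 14.88 to 15.21 on the control diet. Of 7 adipocyte markers with a probe set, Adipoq (6.10), Lep (5.98), Plin1 (6.11) and Fabp4 (6.15) were flat and below each array's median, and Cidec was flat at 8.75. The rest, Cfd and Car3, lay 0.16 ± 0.20 and 0.27 ± 0.14 higher on 1% wakame. Their summed log2 level was 13.51 to 13.86 on 1% wakame and 13.38 to 13.57 on the control diet. Cfd averaged 7.81 and Car3 13.58 over the 12 arrays, so this sum was nearly that of Car3 alone. Car3 lay within the range of the hepatocyte markers (9.04 to 14.61), so the sum was not read as adipocyte content. All 5 varying stellate cell and fibroblast markers also lay higher on 1% wakame, with a summed log2 level of 11.34 to 11.74 on 1% wakame and 11.21 to 11.61 on the control diet. limma called none of these markers, the summed levels overlapped between diets, and their part in the differences above was not tested. The difference between the 3′ and 5′ Gapdh control probe sets, a sign of RNA quality, was 1.07, 1.04, 1.05 and 1.05 in control livers, 1.20, 1.07, 0.96 and 1.10 in 0.1% wakame livers, and 1.22, 1.42, 1.17 and 1.04 in 1% wakame livers. It was highest in 1% wakame rat 2, where Pnpla3 at 1391544_at was lowest. The other 1% wakame livers followed the same order. As the Gapdh difference fell from rat 1 to rat 3 to rat 4, Pnpla3 read 5.59, 8.28 and 9.74. Livers of the 0.1% wakame and control diets did not follow it. Pnpla3 at 1391544_at read 10.97 in 0.1% wakame rat 1, with a Gapdh difference of 1.20. It read 5.53 in 0.1% wakame rat 4, with a Gapdh difference of 1.10. The 3′ to 5′ difference for Actb was 2.28 to 2.43 on 1% wakame, 2.07 to 2.43 on 0.1% wakame and 2.21 to 2.49 on the control diet. For Actb, 1% wakame rat 2 had the lowest of its diet. With the Gapdh difference as a covariate, the Pnpla3 difference at 1391544_at was -3.62 between 1% wakame and control livers (limma adjusted p 0.396). Between 1% and 0.1% wakame livers it was -0.96 with the same covariate. The part of RNA quality in these differences was not tested further.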

How the data were processed

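Liver RNA (100 ng labelled per sample) was hybridised to 12 single-colour Affymetrix arrays. The deposited values are log2 signals made by the authors with R 2.7.2, per the submitters' processing notes; their normalization is not given in the sources used here, and the values were not normalized again. Array medians were 6.59 on all arrays. Genes were named from the platform annotation, using probe sets with a single symbol. limma 3.58.1 (R 4.3.3) was fitted with 1 mean per diet to the 3240 probe sets with an SD above 0.01, with a trended prior. A gene in a list stands for its brightest varying probe set. From each list the genes past the threshold, otherwise up to 4 with the smallest p, were eligible to be named. In data simulated for 1% wakame against control over 3240 probe sets, 56 of 100 changes of 3 SD and 96 of 100 of 5 SD were recovered, with 6 false calls. The simulated noise was normal, independent between probe sets and of equal SD in all diets. Whether these counts hold for the livers, where genes can vary together, was not tested. Alternatives tried were other normalizations and filters on probe sets, an untrended prior, array weights, the Gapdh covariate, the replicate block and leaving out each liver. The genes and lists were chosen with earlier results of these data known. The number of arrays limits the precision.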

Additional observations from a re-analysis of the deposited data

Results flagged for a closer look

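In 4 of 27 groups of 4 arrays, 1 per varying probe set and diet, a single liver stood apart by Dixon's gap ratio at its 95% critical value. Chance alone passes that value in a small share of groups, and probe sets of 1 gene share their rats. The share over all varying probe sets was not counted, so whether 4 of 27 is unusual for these arrays was not tested. For Gpam, 0.1% wakame rat 4 read 6.25 while the others read 6.79 to 6.86, a gap ratio of 0.894. For Agpat2, 0.1% wakame rat 2 stood above the others at 9.36, with a ratio of 0.885, and control rat 4 stood below the others at 9.28, with a ratio of 0.959. For Pnpla3 at 1380643_at, control rat 3 read 7.53, with a ratio of 0.864.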

How the results depend on the processing

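None of the 9 varying probe sets of the 6 genes was called in any comparison under any alternative run. Over all probe sets tested, calls between 1% wakame and control numbered 54, and 4 to 56 under the alternatives (4 with the Gapdh covariate); between 0.1% wakame and control they numbered 2, and 0 to 5; between the wakame diets 0, and 0 to 6. Replicate numbers did not pair the livers (r -0.115 to 0.0924 between same-numbered livers); with the replicate block, 0 of 9 were called, and Pnpla3 at 1391544_at had an adjusted limma p of 0.191 on 1% wakame. Leaving out 1 liver moved its difference on 1% wakame to between -6.08 and -4.51. Near-zero differences turned sign. For Agpat2 between 1% and 0.1% wakame they were 0.0107 with quantile normalization, 0.00326 with array weights and 0.00273 with the Gapdh covariate, and -0.0200 to 0.0351 when 1 liver was left out. For Dgat2, leaving out 1 liver gave -0.0183 to 0.0799 at 1391045_at on 1% wakame against control, and between the wakame diets -0.136 to 0.0566 at 1371615_at and -0.0661 to 0.00611 at 1391045_at. The causes were not tested.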
